A study of Mus musculus with 6 samples.

Results

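Aminoacyl-tRNA synthetases are the enzymes that attach each amino acid to its matching transfer RNA. A set of 38 genes was followed, namely 20 genes for cytosolic synthetase subunits, 16 for mitochondrial synthetases and 2 for scaffold proteins of the cytosolic multi-synthetase complex. They were taken from a list of gene names, which was drawn up with earlier results of these data known, and all 38 were found among the 22186 genes of the deposited table. Messenger RNA was sequenced in primary mouse adipose-derived stromal cells (ADSCs, fibroblast-like cells isolated from fat) of wild-type genotype. The control group held 3 libraries of ADSCs with no co-culture. The Treg co-culture group held 3 libraries of ADSCs kept with Treg (regulatory T cells, which restrain immune responses) for 48 hours. Each library carries a batch number from 1 to 3, and every batch holds 1 control and 1 co-culture library. The labels give no strain, age or sex, and do not say whether the cell types touched. There was no co-culture with another cell type, so an effect of Treg cannot be told apart from an effect of co-culture as such. Nothing in the labels ties a replicate to its own animal or culture, and the spread behind every p-value may therefore be technical.

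A synthetase activates its amino acid with ATP and transfers it to the tRNA, and many of these enzymes edit away wrongly attached amino acids. In mammals most cytosolic and mitochondrial synthetases come from separate nuclear genes, while Gars (glycine) and Kars (lysine) each encode both forms. Several cytosolic synthetases sit in a multi-synthetase complex held together by the scaffolds Aimp1, Aimp2 and Eef1e1. Transcription of many cytosolic synthetase genes is raised by ATF4, the main transcription factor of the integrated stress response, when amino acids run short. The series title names translational suppression, and charged tRNA is a direct input of translation, although these transcript levels measure neither charging nor translation.

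Levels are given in TPM, a share of all transcripts that the authors corrected for gene length, so levels of different genes can be set side by side. Each library adds up to 1000000 TPM, which hides the sequencing depth and allows no counting interval. A library held 6566 to 7073 genes at 0. Of 12 adipose stromal markers, all 12 were tested, 8 fell and 3 rose, and their summed level was 16800 to 17500 TPM in controls and 14800 to 15400 TPM after co-culture. Muscle differentiation markers rose in 11 of 12 cases and summed to 1400 to 1440 TPM in controls against 3590 to 3660 TPM after co-culture. Markers of T cells were near 0 in both groups: 8 of 15 (among them Cd3e, Cd4 and Ctla4) were at 0 in every library, and the list summed to 5.60 to 6.88 TPM in controls and 6.29 to 6.62 TPM after co-culture. Of 18 T cell markers listed, the receptor genes Trac, Trbc1 and Trbc2 were not found among the genes of the deposited table and could not be checked. The 12 macrophage markers summed to 103 to 109 TPM in controls and 74.5 to 88.9 TPM after co-culture, with 2 of 10 tested lower, and the 9 endothelial markers to 41.2 to 43.1 against 36.3 to 37.4 TPM, with 1 higher and 2 lower of 6 tested. Beside these counts, 19.8% of all genes tested rose and 18% fell. Lyz2 made up most of the fall in the macrophage sum, from a mean of 65.9 to 44.7 TPM, and Mpeg1 was the other macrophage gene called lower. Mature heart and liver transcripts reached 219 TPM in Treg co-culture 1 against 84.0 to 89.3 TPM in the other libraries. Nearly all of the sum in those other libraries was Trf, which had 81.9, 86.72 and 87.05 TPM in controls. Trf had 101.2, 83.71 and 87.83 TPM in Treg co-culture 1 to 3. Alb had 64.9 TPM in Treg co-culture 1 and at most 0.21 TPM in any other library, and Myl2 had 10.92 TPM against at most 0.869 TPM. The part of these shifts in the results below was not tested, and in bulk RNA a change in the number of cells of a type and a change of RNA per cell cannot be told apart.

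Cytosolic synthetase transcripts were mostly higher after Treg co-culture, by margins that ran from 2.33% (Aars) to 31.8% (Wars) in mean TPM. Of 20 genes, 15 rose and 0 fell at a Benjamini-Hochberg adjusted p under 0.05 in limma, which was fitted over all 12405 genes tested. Over all genes tested 19.8% rose and 18% fell. Among the 3507 genes in the same range of mean TPM, 27.4% rose. Genes in that range had a median level of 81.4 TPM, against 107 TPM for the 20 genes. The median log2 fold change of the 20 genes on the log2(TPM + 1) scale was 0.23, against 0.00 over all genes tested, and all 20 estimates were above 0 (0.03 to 0.39). The 20 genes together took 2910, 2886 and 2894 TPM in controls 1 to 3 and 3298, 3291 and 3297 TPM in Treg co-culture 1 to 3, a mean that was 13.8% higher. For 19 of the 20 genes every co-culture library lay above every control library, a pattern found in 25.3% of all genes tested, while 24.0% had every co-culture library below.

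**Figure D1:**
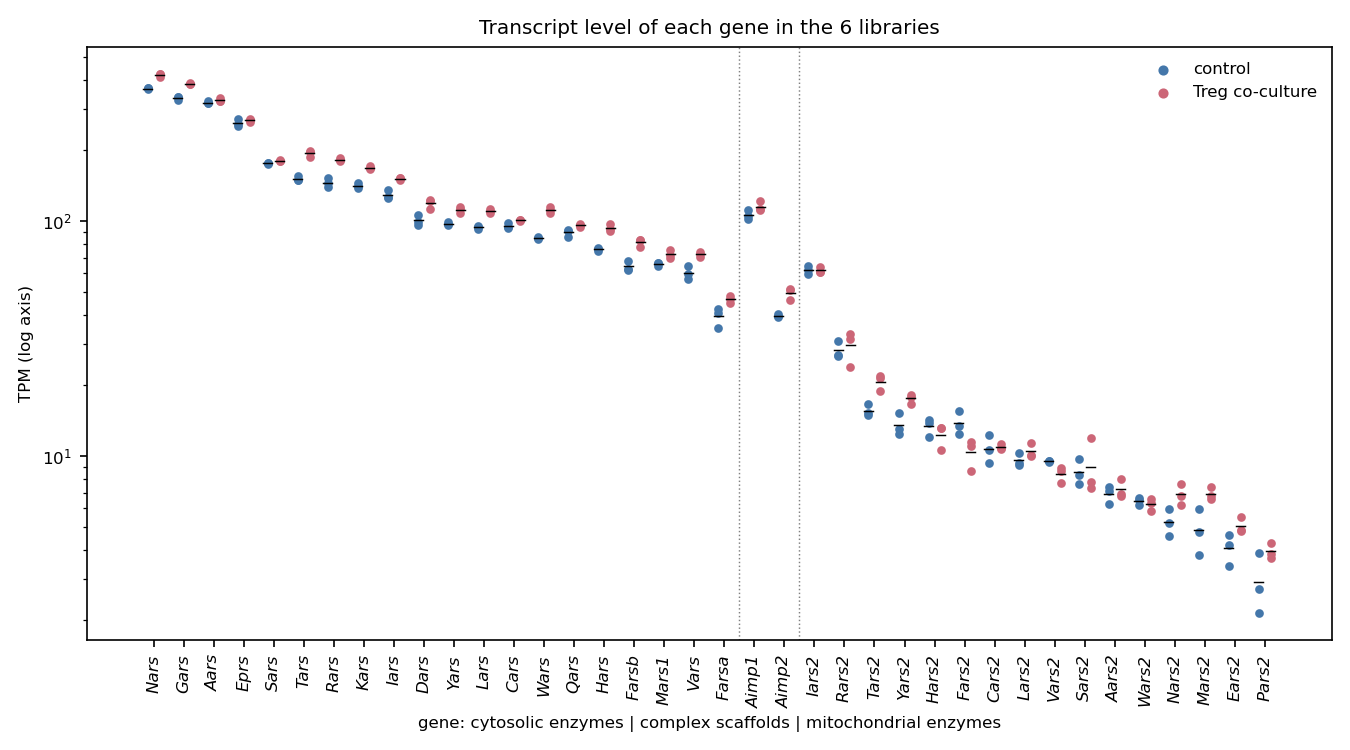
TPM (log axis) of the 38 genes in the 3 control and 3 Treg co-culture libraries, ordered by mean level within the cytosolic enzymes, the complex scaffolds and the mitochondrial enzymes; points are libraries and black bars group means. The cytosolic genes run from 393 TPM (Nars) to 43.0 TPM (Farsa), and the mitochondrial genes from 61.9 TPM (Iars2) to 3.42 TPM (Pars2).

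The largest rise among the cytosolic genes was in Wars, which charges tryptophan and is known as an interferon-gamma-induced gene. Its level was 83.7, 85.1 and 85.3 TPM in controls 1 to 3 and 111, 115 and 109 TPM in Treg co-culture 1 to 3. The groups did not overlap, with a log2 fold change of 0.39 (SE 0.035, limma adjusted p = 1.4e-05). A part of interferon in the rise of Wars was not tested. Tars, the threonine enzyme, stood at 150, 149 and 155 TPM in controls and 197, 188 and 199 TPM after co-culture. This was a log2 fold change of 0.36 (SE 0.032, limma adjusted p = 1.42e-05), again with no overlap. Rars, the arginine enzyme, had 153, 140 and 145 TPM in controls and 186, 180 and 183 TPM after co-culture. That is a log2 fold change of 0.33 (SE 0.036, limma adjusted p = 6.69e-05).

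The phenylalanine enzyme of the cytosol is built from the products of Farsa and Farsb. Farsb had 62.1, 62.7 and 68.0 TPM in controls and 83.5, 77.6 and 83.4 TPM after co-culture, and rose by 0.34 (SE 0.048, limma adjusted p = 0.000363) on the log2 scale. Farsa was the lowest of the cytosolic genes, with 40.7, 35.2 and 42.4 TPM in controls and 46.6, 47.9 and 45.1 TPM after co-culture. Both subunit genes thus moved the same way, but the rise of Farsa (0.24, SE 0.067, limma adjusted p = 0.0188) lost its call without Treg co-culture 1 (0.0540) or Treg co-culture 2 (0.0641). Hars, the histidine enzyme, went from 76.0 ± 0.945 to 93.5 ± 3.21 TPM (SD, n = 3 each), a log2 fold change of 0.30 (SE 0.038, limma adjusted p = 0.000168).

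The most abundant of all was Nars, the asparagine enzyme, with 368, 368 and 365 TPM in controls and 410, 423 and 422 TPM after co-culture. Its log2 fold change of 0.19 had an SE of 0.023 (limma adjusted p = 0.000123), so a rise of 14.0% in mean TPM was well beyond the spread of the libraries. Gars, with 339, 337 and 328 TPM in controls and 384, 387 and 382 TPM after co-culture, rose by 0.20 (SE 0.023, limma adjusted p = 0.000104). Kars went from 145, 141 and 138 TPM to 172, 167 and 168 TPM, a log2 fold change of 0.26 (SE 0.031, limma adjusted p = 0.00011). Since Gars and Kars supply both compartments, their rise cannot be assigned to the cytosol alone.

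The other risers were Vars (valine, 0.26), Dars (aspartate, 0.24), Iars (isoleucine, 0.23), Lars (leucine, 0.23), Yars (tyrosine, 0.20) and Mars1 (methionine, 0.14), all as log2 fold changes. Their limma adjusted p-values ran from 0.00036 (Lars) to 0.0232 (Mars1). Mars1 went from 65.7 ± 0.861 to 72.4 ± 2.96 TPM (SD, n = 3 each), and its call was lost without control 3 (adjusted p = 0.0705 in limma), Treg co-culture 1 (0.0553) or Treg co-culture 3 (0.0921). Without Treg co-culture 1, the library with heart and liver transcripts, 13 of the 20 cytosolic genes rose and 0 fell. Over all 12405 genes tested, 2080 rose and 1850 fell in that fit. With the batch as a block 15 of the 20 rose and 0 fell, beside 2369 and 2123 of all genes tested.

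The 5 cytosolic genes that did not pass the test were Qars (glutamine; 0.10, SE 0.038), Cars (cysteine; 0.07, SE 0.034), Eprs (0.04, SE 0.031), Sars (serine; 0.03, SE 0.026) and Aars (alanine; 0.03, SE 0.023), on the log2 scale. Eprs encodes a single protein that charges both glutamate and proline, and it was the 1 cytosolic gene whose groups overlapped, with 273, 258 and 254 TPM in controls and 270, 272 and 265 TPM after co-culture. Aars had 319, 319 and 323 TPM in controls against 326, 333 and 324 TPM after co-culture, so the groups were apart by a narrow gap. Limma adjusted p-values of these 5 genes were between 0.0701 (Qars) and 0.351 (Eprs). Aars, Eprs and Sars were among the 5 most abundant cytosolic synthetase transcripts. In the GENCODE M21 annotation 1326 exon bases of Aars are shared with Exosc6 on the same strand, so the separate level of Aars is uncertain. Exons of Farsb (248 bases, with Sgpp2), Hars (195 bases, with Hars2), Yars (30 bases, with C77080) and Aimp2 (487 bases, with Eif2ak1) overlap a gene on the other strand, and the sources used here do not say whether counting used strand.

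**Figure D2:**
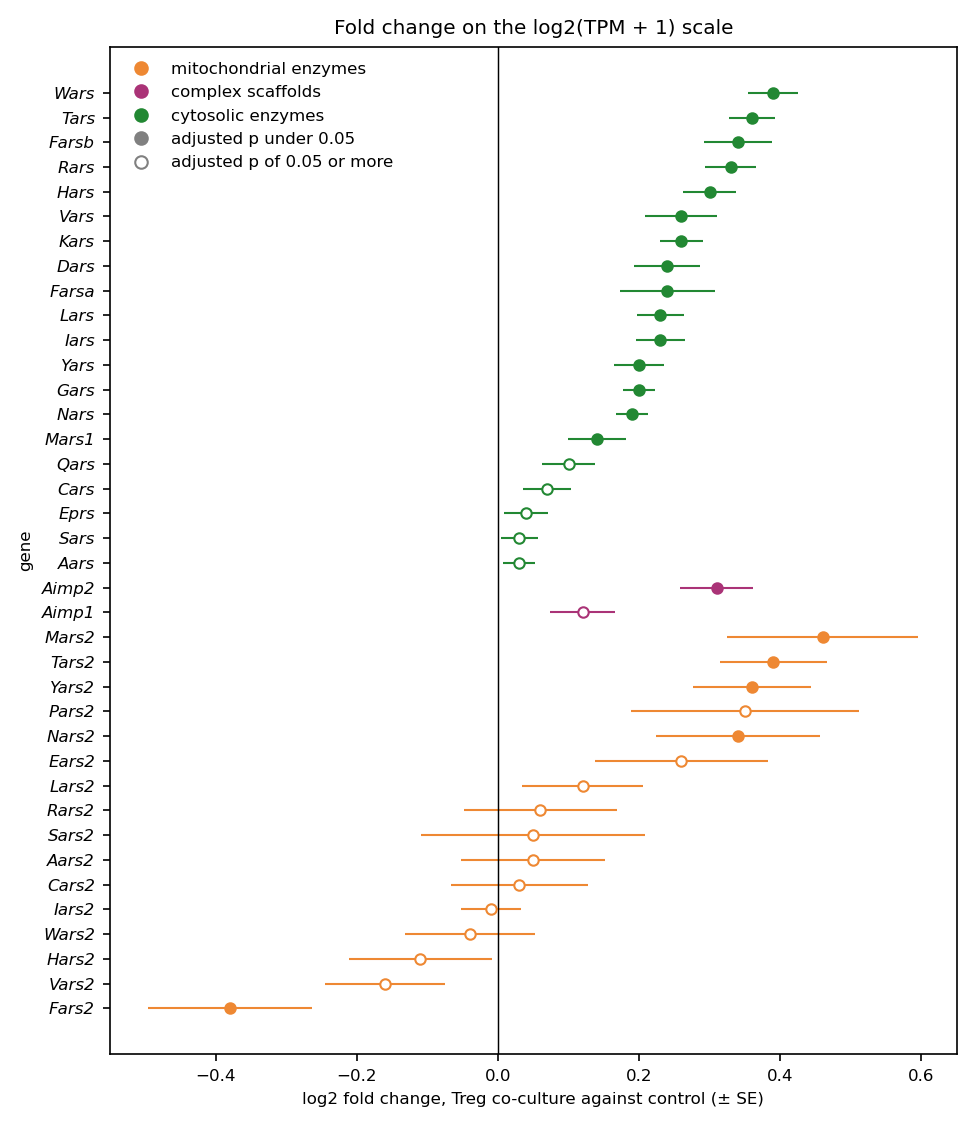
Log2 fold change of Treg co-culture against control (horizontal axis, log2(TPM + 1) scale, bars are limma standard errors) for the 38 genes, with filled points for adjusted p under 0.05. All 20 cytosolic genes lie above 0, from 0.03 (Aars) to 0.39 (Wars), whereas the mitochondrial genes run from -0.38 (Fars2) to 0.46 (Mars2).

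Genes inside and outside the multi-synthetase complex, a grouping made after the values were seen, rose in equal shares (75.0%). Of the 8 cytosolic enzyme genes whose products sit in the complex (Eprs, Iars, Lars, Mars1, Qars, Rars, Kars and Dars), 6 rose, with a median log2 fold change of 0.23. Of the other 12 genes 9 rose, with a median of 0.22. The scaffold gene Aimp2 had 39.3, 39.2 and 40.4 TPM in controls and 46.2, 51.5 and 50.9 TPM after co-culture. It rose by 0.31 (SE 0.052, limma adjusted p = 0.000918). Aimp1, whose groups overlapped, had 105, 112 and 102 TPM in controls and 121, 113 and 111 TPM after co-culture (log2 fold change 0.12, SE 0.046, limma adjusted p = 0.0733), and it passed the threshold without control 2 (0.0325). The third scaffold, Eef1e1, stands outside the 38 genes and went from 43.9 ± 4.09 to 63.2 ± 2.47 TPM (SD, n = 3 each), a log2 fold change of 0.52 (SE 0.065, limma adjusted p = 0.000157).

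Promoter sequence was examined because ATF4 binds the C/EBP-ATF response element (CARE) upstream of many synthetase genes. RefSeq windows of build GRCm38.p6, from 250 bases before to 50 after the start site, were matched for 29 of the 38 genes, 13 of them cytosolic and 14 mitochondrial. The CARE core TGATGNAA, searched on both strands, was found in 5 of the 13 cytosolic windows (38.5%), 0 of the 14 mitochondrial windows and 0 of the 2 scaffold windows. It was found in 4.51% of all 27025 genes with a window and in 2.72% of the 9870 of them that were tested. The cytosolic genes with a match were Aars, Gars, Iars, Tars and Yars. The stretch around each match is printed because the match is what these genes share, with the CARE core in capitals and 20 bases on either side, 5′ to 3′ on the strand of the gene. In all but Yars the core lies on the other strand and so reads TTGCATCA or TTTCATCA here. A match describes these letters only, not binding by ATF4.
Aars, chr8:111033710-111033757, + strand: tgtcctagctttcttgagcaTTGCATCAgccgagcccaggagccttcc
Aars, chr8:111033831-111033878, + strand: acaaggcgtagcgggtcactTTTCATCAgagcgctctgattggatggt
Gars, chr6:55037951-55037998, + strand: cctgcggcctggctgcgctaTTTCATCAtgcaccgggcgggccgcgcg
Iars, chr13:49682117-49682164, + strand: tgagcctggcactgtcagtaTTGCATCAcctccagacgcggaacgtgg
Tars, chr15:11399646-11399693, - strand: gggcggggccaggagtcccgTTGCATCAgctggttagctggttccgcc
Yars, chr4:129189886-129189933, + strand: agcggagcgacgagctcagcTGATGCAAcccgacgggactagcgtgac

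The match begins 112 bases before the start site and again at base 10 after it in Aars, 30 before it in Gars, at base 8 after it in Iars, 15 before it in Tars and at base 4 after it in Yars. Of the 5 genes with a match 4 rose, and Aars did not pass the test (log2 fold changes 0.03 to 0.36). Of the 8 cytosolic genes with a window and no match 5 rose (0.03 to 0.34). Beside these counts, 19.8% of all genes tested rose, and 27.4% of those in the TPM range of the cytosolic genes. Cytosolic genes without a window are outside both counts, and a link between a match and a rise was not tested. The E-box CACGTG, a site for Myc-type factors, was in 4 of the 13 cytosolic windows (30.8%; Aars, Farsb, Iars and Tars), in 1 of the 14 mitochondrial windows (Ears2), and in 8.09% of all genes with a window (11.8% of those tested). The interferon-stimulated response element core GAAANNGAAA was in 1 cytosolic window, that of Qars, and in 3.99% of all genes with a window. Wars is among the genes without a matched window. The Tars window is printed whole because Tars had the largest fold change among cytosolic genes with a window and holds both a CARE core and an E-box, marked in capitals in that order.
Tars, chr15:11399609-11399908, - strand: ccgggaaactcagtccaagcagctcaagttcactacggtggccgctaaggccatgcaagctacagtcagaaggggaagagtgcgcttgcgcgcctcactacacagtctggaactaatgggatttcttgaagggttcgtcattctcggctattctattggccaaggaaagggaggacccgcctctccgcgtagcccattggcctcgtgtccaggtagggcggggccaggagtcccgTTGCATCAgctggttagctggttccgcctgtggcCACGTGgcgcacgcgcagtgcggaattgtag

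Mitochondrial synthetase transcripts showed no common direction. Of 16 genes 4 rose and 1 fell at an adjusted p under 0.05 in limma without a block, with a median log2 fold change of 0.06 and estimates above 0 for 11. With the batch as a block, Nars2 (limma adjusted p = 0.0619) and Fars2 (0.0521) lost their calls. The share that rose without a block, 25.0%, was near that of all genes tested (19.8%) and of the 8260 genes in the same TPM range (17.9%). Genes in that range were not matched for level, with a median of 19.0 TPM against 9.5 TPM for the 16 genes. In that range 17.0% of genes fell, against 6.25% of the mitochondrial enzymes. Summed, the 16 genes took 223, 211 and 213 TPM in controls and 224, 234 and 224 TPM in co-culture libraries, a mean that was 5.61% higher. All 16 had a mean between 3.42 TPM (Pars2) and 61.9 TPM (Iars2), and their median SE on the log2 scale was 0.101, against 0.035 for the cytosolic genes. The median SE was 0.042 over all genes tested in the cytosolic TPM range and 0.076 over those in the mitochondrial range. The part of the larger error in the smaller number of calls was not tested.

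**Figure D3:**
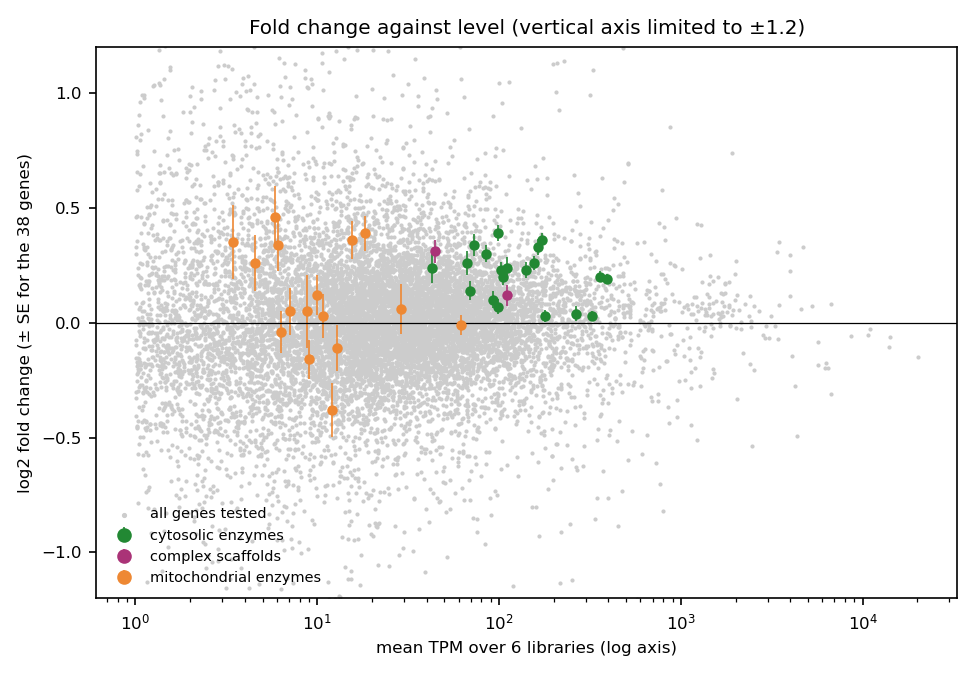
Mean TPM over 6 libraries (log axis) against log2 fold change on the log2(TPM + 1) scale, for all 12405 genes tested (grey) and the 38 genes (coloured, bars are standard errors); 102 genes lie outside the vertical limits of 1.2. The mitochondrial genes lie to the left, with a median SE of 0.101, and the cytosolic genes to the right, with a median SE of 0.035.

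Tars2, the mitochondrial threonine enzyme, was the clearest riser, with 16.6, 15.3 and 14.9 TPM in controls and 18.9, 21.9 and 21.4 TPM after co-culture. It rose by 0.39 on the log2 scale (SE 0.076, limma adjusted p = 0.00264), and the call held without each library in turn and with the batch block. Yars2, the tyrosine enzyme, had 15.3, 12.4 and 13.0 TPM in controls and 16.7, 17.9 and 18.3 TPM after co-culture. The groups of both genes were apart, and Yars2 rose by 0.36 (SE 0.084, limma adjusted p = 0.00762). Mars2, the methionine enzyme, had 4.78, 5.96 and 3.79 TPM in controls and 7.39, 6.79 and 6.59 TPM after co-culture. Its log2 fold change of 0.46 was the largest of the 38 genes but had an SE of 0.136 (limma adjusted p = 0.0237). That call was lost when control 1 (0.0554), control 3 (0.0739), Treg co-culture 1 (0.0813) or co-culture library 2 (0.0540) was left out. Nars2, the asparagine enzyme, went from 4.57, 5.21 and 5.95 TPM to 6.77, 7.64 and 6.22 TPM (log2 fold change 0.34, SE 0.116, limma adjusted p = 0.0430). Its call was lost with the replicate block (0.0619) and when control 1 (0.133), control 2 (0.0935), Treg co-culture 1 (0.0904) or co-culture library 2 (0.144) was left out.

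Fars2, the mitochondrial phenylalanine enzyme, was the 1 gene of the 38 that fell. It had 12.4, 15.6 and 13.4 TPM in controls and 11.5, 8.63 and 11.1 TPM after co-culture, a log2 fold change of -0.38 (SE 0.116, limma adjusted p = 0.0260). The groups were apart, and 115 exon bases of Fars2 overlap Lyrm4 on the other strand. The call was lost with the replicate block (0.0521) and without control 2 (0.103), control 3 (0.0524) or Treg co-culture 2 (0.0857). Vars2, the valine enzyme, was also lower in every co-culture library (9.51, 9.44 and 9.58 TPM in controls against 8.66, 8.93 and 7.71 TPM), without passing the test (-0.16, SE 0.085, limma adjusted p = 0.170). On the other strand 296 exon bases of Vars2 overlap Gm20483.

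Iars2, the isoleucine enzyme and the most abundant of the mitochondrial group, stood at 64.3, 59.8 and 61.8 TPM in controls and 61.0, 60.7 and 63.5 TPM after co-culture. Its difference was -0.01 with an SE of 0.043, the smallest error in the group, although 2034 of its exon bases overlap Rab3gap2 on the other strand. Rars2 (arginine, 0.06), Aars2 (alanine, 0.05), Sars2 (serine, 0.05), Cars2 (cysteine, 0.03), Lars2 (leucine, 0.12), Wars2 (tryptophan, -0.04) and Hars2 (histidine, -0.11) had overlapping groups and limma adjusted p-values of 0.316 to 0.848. Sars2 varied widely, with 7.30, 11.9 and 7.78 TPM in the co-culture libraries. Ears2, the glutamate enzyme that also starts the mitochondrial route to charged glutamine tRNA, had a log2 fold change of 0.26 (SE 0.123, limma adjusted p = 0.121) with every co-culture library above every control. Exons of Ears2 overlap Ubfd1 on the other strand by 89 bases. Pars2, the proline enzyme, was the lowest of all with 2.72, 2.15 and 3.87 TPM in controls and 3.85, 3.68 and 4.26 TPM after co-culture (0.35, SE 0.162, limma adjusted p = 0.115), and it passed the threshold without control 3 (0.0218). With Treg co-culture 1 left out, 2 mitochondrial genes rose, and the same number did without control 1 or without co-culture library 2. Over all 12405 genes tested, 2080, 2245 and 2082 rose in these fits, in that order. The number of mitochondrial genes that fell was 0 without control 2, control 3 or Treg co-culture 2, beside 1878, 1842 and 1905 of all genes tested. With the replicate block 3 rose and 0 fell, beside 2369 and 2123 of all genes tested.

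Cytosolic and mitochondrial partners for the same amino acid were compared directly as a ratio of TPM in each library, over 17 pairs. In every library the cytosolic gene was the more abundant, from 1.96-fold (Iars/Iars2) to 120-fold (Eprs/Pars2). After co-culture the mean log2 ratio was higher in 9 pairs and lower in 8. In 7 pairs every co-culture ratio lay above every control ratio, and in 1 pair (Eprs/Ears2) below. For single genes the shares over all genes tested were 25.3% above and 24.0% below; no such share was computed for ratios, and Fars2 and Eprs each enter 2 pairs. With 3 against 3 libraries the smallest p that an exact two-sided permutation test of 20 arrangements can give is 0.1. After Benjamini-Hochberg adjustment over the 17 pairs no pair was under 0.213, so this design cannot show a difference for any pair by that test.

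The pairs with the widest shift shared Fars2: Farsb/Fars2 was 5.00, 4.01 and 5.07 in controls and 7.23, 8.99 and 7.54 after co-culture, and Farsa/Fars2 was 3.28, 2.25 and 3.17 against 4.04, 5.54 and 4.08. Wars/Wars2 was 13.5, 12.8 and 13.1 in controls and 17.6, 17.4 and 18.5 after co-culture, a shift of 0.44 on the log2 scale. Here the cytosolic gene rose (0.39) while the estimate of its partner was -0.04. Vars/Vars2 (0.44), Hars/Hars2 (0.42), Rars/Rars2 (0.27) and Iars/Iars2 (0.23) were the remaining pairs with every co-culture ratio higher. Threonine was different, since both genes rose and the ratio was 9.02, 9.78 and 10.4 in controls and 10.4, 8.59 and 9.29 after co-culture. Both tyrosine genes rose as well, and so did both methionine genes and both asparagine genes, with ratio differences of -0.18, -0.40 and -0.21 whose groups overlapped.

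**Figure D4:**
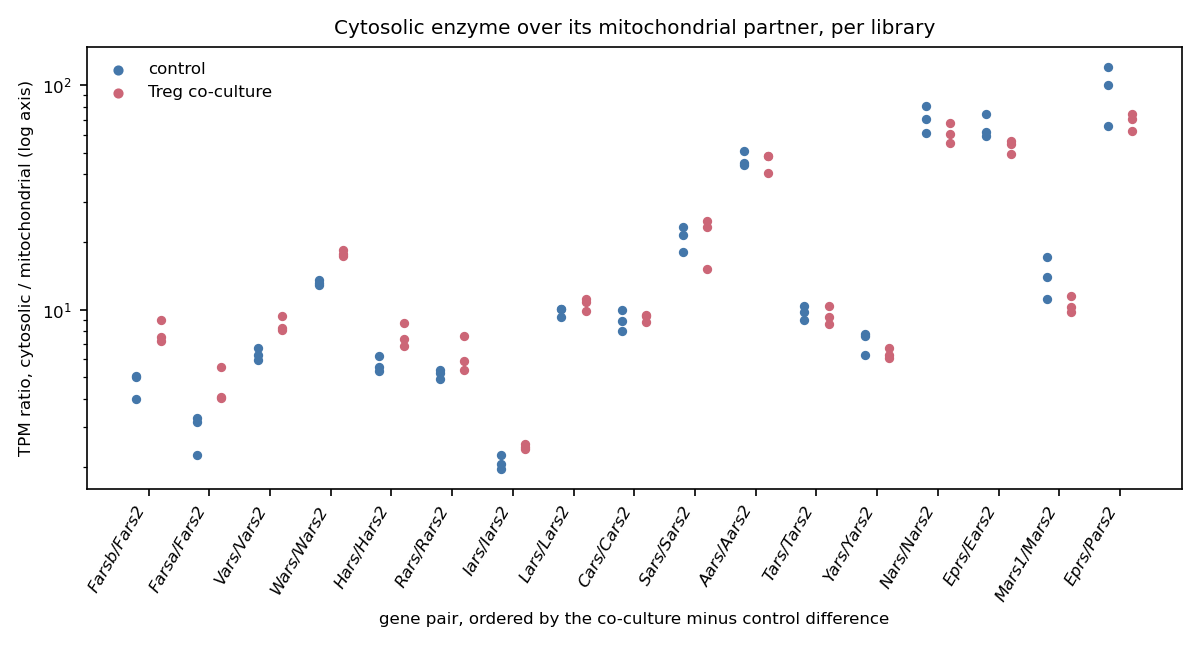
Ratio of the TPM of the cytosolic gene to that of its mitochondrial partner (log axis) for 17 pairs in each of the 6 libraries, ordered from the largest gain to the largest loss after co-culture. In 7 pairs, including Farsb/Fars2, Vars/Vars2 and Wars/Wars2, the 3 co-culture points lie above the 3 control points, and in Eprs/Ears2 below.

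The other genes of tRNA supply were described from lists of related genes. Of 25 other charging, editing and delivery genes 9 rose (36.0%) and 1 fell (4.00%), beside 19.8% and 18% of all genes tested. The gene that fell was Eef1a1, the factor that carries charged tRNA to the ribosome, from 14400 ± 162 to 13400 ± 98.3 TPM (SD, n = 3 each; log2 fold change -0.11, limma adjusted p = 0.000102), and 2 fell without Treg co-culture 2. Gfm1, a mitochondrial elongation factor, rose by 0.36 (limma adjusted p = 0.000105), and Eef1e1 is given above. Outside the 38 genes, and named after its values were seen, the second threonine gene Tarsl2 (0.18, SE 0.095, limma adjusted p = 0.174) did not pass the test.

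Of 64 tRNA modification genes 19 rose (29.7%, beside 19.8% of all genes tested) and 1 fell (1.56%, beside 18%), and the median log2 fold change of the list was 0.13. Nsun2, a tRNA cytosine methyltransferase, went from 56.4 ± 3.53 to 75.5 ± 2.26 TPM (SD, n = 3 each; 0.42, limma adjusted p = 0.000119), Trit1, which adds an isopentenyl group beside the anticodon, rose by 0.57 and Yrdc, which makes the precursor of the threonylcarbamoyl mark, by 0.46. The count of genes that rose was 10 of 64 without control 3 and 8 of 64 without Treg co-culture 3. Over all 12405 genes tested, 2136 and 2058 rose in these fits, so the share of the list was then not above that of all genes. In the list 2 fell without Treg co-culture 1 or Treg co-culture 3. Of 27 tRNA processing and export genes 7 rose (25.9%, beside 19.8% of all genes tested) and 2 fell (7.41%, beside 18%). Among them the 3′ end nuclease Elac2 (0.42) and the RNase P subunit Pop1 (0.33) rose and Rpp25 fell (-0.32), with limma adjusted p-values of 0.00137, 0.00376 and 0.00694, and 1 fell without control 1, control 3 or Treg co-culture 3.

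RNA polymerase III transcribes tRNA genes. Of 30 genes for its subunits and factors 2 rose and 2 fell (6.67% each), beside 19.8% and 18% of all genes tested. The subunit Polr3d rose by 0.25 (limma adjusted p = 0.00323), while the initiation factor Brf1 (-0.24, limma adjusted p = 0.00769) and the repressor Maf1 (-0.21, limma adjusted p = 0.00766) fell. The libraries were made from captured mRNA, so tRNA itself was not measured.

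Of 41 integrated stress response genes tested 12 rose (29.3%, beside 19.8% of all genes tested) and 8 fell (19.5%, beside 18%), and the median of the list was 0.04. The serine synthesis enzyme Psat1 (0.40) and the mitochondrial folate enzyme Mthfd2 (0.42) rose, and the glutamine transporter Slc1a5 fell (-0.40), with limma adjusted p-values of 1.67e-06, 1.11e-05 and 1.06e-05. Atf4 itself, named after its values were seen, had 374, 413 and 386 TPM in controls and 424, 419 and 395 TPM after co-culture, with overlapping groups (log2 fold change 0.08, SE 0.039, limma adjusted p = 0.142). The stress-induced factor Ddit3, also named after its values were seen, was lower in every co-culture library, at 149, 160 and 148 TPM against 187, 189 and 172 TPM in controls (-0.26, SE 0.043, limma adjusted p = 0.00112). The CARE core was in 10 of the 36 windows of this list (27.8%).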

How the data were processed

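Messenger RNA of 6 libraries (3 control, 3 Treg co-culture) was enriched on capture beads and sequenced, per the labels' protocols. The authors deposited 1 table of TPM values, 1 column per library; the builds GRCm38, mm10 and GRCm39 are named with no role in the submitters' processing notes, and the sources used here name no aligner, counter or annotation. Gene numbers were matched to symbols in the RefSeq table of GRCm38.p6 (21992 of 22186). Depth is unknown, since TPM keeps none.

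A pseudocount of 1 was added to TPM before taking log2, and changes of low genes are understated as a result. The 12405 genes whose mean reached 1 TPM were tested with limma 3.58.1 (R 4.3.3; mean-variance trend, no block), Benjamini-Hochberg adjustment over all genes and a threshold of 0.05. Ratios of partner genes were tested by exact permutation (scipy 1.17.1). Libraries were not copies: at most 13 of 12405 genes had the same value in a pair. The labels give each library a batch, which pairs 1 control with 1 co-culture library; the correlation of their deviations from the group mean was 0.0115 (batch 1), -0.0146 (batch 2) and 0.00402 (batch 3). On simulated data (12405 genes) limma recovered 99% of 100 genes changed by 1 and 49% of 100 changed by 0.3 on the log2 scale, with 10 false calls. The simulation changed far fewer genes than were called in the data (2454 higher and 2234 lower). It also drew the changed genes from the more abundant ones only and used independent normal noise. These shares are therefore not the power for the genes studied here, least of all for the low mitochondrial genes.

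The members and gene lists were chosen with earlier results of these data known. All 38 members are accounted for; of each related list up to 3 genes with the lowest adjusted p, and of each marker list up to 3, were to be named, and other names were chosen after values were seen. Alternatives were a pseudocount of 0.1, no filter or 5 TPM, median-of-ratios and quantile scaling, rescaling without mitochondrial and ribosomal protein genes, no trend, the batch block, an adjusted p of 0.01, and libraries or batches left out.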

Additional observations from a re-analysis of the deposited data

How the results depend on the processing

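The 15 cytosolic genes that rose numbered 13 to 15 when single libraries were left out, 13 without the mean-variance trend, and 13 of them kept their call under all 18 alternatives, with Farsa and Mars1 the exceptions; 0 fell under any alternative. Over all 12405 genes tested, 2058 to 2245 rose and 1842 to 1982 fell when single libraries were left out. The mitochondrial counts rest on few calls. The number that rose (4) was 2 to 4 when single libraries were left out and 2 with no filter, with an adjusted p of 0.01 and with the replicate block without batch 1 or without batch 2. The number that fell (1) was 0 to 1 when single libraries were left out and 0 with no filter, with no trend, with an adjusted p of 0.01, with the replicate block and with the block without batch 2. The replicate block ended the calls of Fars2 and Nars2 and of no other member. Scaling moved the median of all genes by less than 0.1. Farsa and Mars1 also missed the threshold without the trend (0.0567 and 0.0574), as did Fars2 (0.0610), and without a filter Fars2 (0.0673), Mars2 (0.0595) and Nars2 (0.0845) did. With the block and without batch 2 Yars2 missed it (0.0863) and Aimp1 passed (0.0331).

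The members that turned direction had no call. With single libraries left out, the log2 fold change of Aars2 turned to -0.0144 and -0.0076. Cars2 ranged from -0.0584 to 0.12, Rars2 from -0.0315 to 0.19, Sars2 from -0.15 to 0.17 (also -0.0224), Iars2 from -0.0303 to 0.0212 (also 0.0028 and 0.0066) and Wars2 from -0.0723 to 0.0007. With the block and a batch left out, Cars2 was at -0.05, Hars2 at 0.0278, Iars2 at 0.0295, Rars2 at -0.0671, Sars2 at -0.22 and Wars2 at 0.0049. Among ratio differences with single libraries left out, Aars/Aars2 ranged from -0.0734 to 0.0569 (also 0.0386), Cars/Cars2 from -0.0345 to 0.12 and Tars/Tars2 from -0.12 to 0.0204 (also 0.0023), and Sars/Sars2 turned to 0.0643, 0.0077 and 0.21. The cause was not tested. With an adjusted p of 0.01, 6 tRNA modification genes rose against 19, and 2 tRNA processing genes against 7. With the block and a batch left out 8 to 10 of 64 modification genes rose, beside 1811 to 2099 of all 12405 genes tested. The number that fell among charging, processing and modification genes, and the number of polymerase III genes in either direction, stayed between 0 and 3, while 6 to 8 stress response genes fell.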
